A study of Mus musculus with 2 samples.

Results

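The cytosolic ribosomal protein genes were examined in dissected midbrain of mouse embryos (strain B6NCrl, day 13.5). The family was taken by symbol, as protein-coding genes named Rpl or Rps with a digit, plus Rpsa, Rplp0, Rplp1 and Rplp2. Of 348 matching symbols, 10 S6 kinase genes and 246 entries with -ps in the symbol were left out. Some of the -ps entries, such as Rpl10-ps3, are annotated as protein-coding. A further 6 entries were left out because they are not protein-coding. This gave 86 members of 43346 gene entries, 52 of the large and 34 of the small subunit. The rule also took Rps19bp1, which encodes a binding protein of Rps19 and not a ribosomal protein, and Rps27rt, a retrogene. Ribosomal proteins with other symbols, such as Fau and Rack1, fall outside the rule, and the values of these genes are given beside the family. Total RNA longer than 200 nt was sequenced in 2 libraries of 1 group, each from pooled male and female embryos, with 10 ng of starting RNA and added spike-ins. There was no second tissue, age, genotype or treatment, so the comparisons are between genes of the family and between the replicates.

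The cytosolic ribosome is built from ribosomal RNAs and one set of proteins in its large and small subunits. Its proteins are made from short, abundant mRNAs of genes spread over most chromosomes, and many of these mRNAs begin with a run of pyrimidines through which mTOR and Larp1 control their translation. The genes have left many processed pseudogenes in mammalian genomes, and some have paralogues used in other tissues. In the embryonic brain, growing progenitors and young neurons depend on a high output of ribosomes.

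Replicate 1 held 31436613 and replicate 2 held 40215359 expected reads on genes, where an expected read is an estimate that divides reads matching several entries. Levels are given as TPM, transcripts per a fixed total of transcripts, which corrects for length, and positions are those of GRCm38. Of the TPM total 5.36% (replicate 1) and 9.39% (replicate 2) fell on spike-ins, which lower gene TPM in replicate 2 accordingly. Of the markers of the dissected region 6 of 6 midbrain genes reached 1 TPM in both libraries. They ranged from En2, not far above that level at 1.66 ± 0.0849 TPM, to Otx2 at 111 ± 8.97 (SD, n = 2). The same level was reached by 0 of 4 Hox genes. Erythroid genes were present as well, 6 of 6, with a summed level of 8259 TPM in replicate 1 and 8389.6 in replicate 2. Blood cells contain ribosomal protein mRNA too, and their part in the values below was not tested. In a whole tissue, a lower level from fewer cells and one from less RNA per cell cannot be told apart.

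The family was abundant and nearly complete in the tissue. Its members held 4.47% of gene TPM in replicate 1 and 4.52% in replicate 2, a mean of 4.49% ± 0.0351 (SD, n = 2), and 1.58% and 1.59% of reads on genes. TPM counts a short RNA more per read than a long one. The median annotated length was 687 nt in the family and 2397 nt in other coding genes with at least 10 TPM. A level of at least 1 TPM in both libraries was reached by 83 of 86 members. The exceptions were Rpl3l, Rpl10l and Rpl39l, 3 paralogues described below. Of the 198 coding genes with a mean of at least 500 TPM 38 were members, and 11 members stood among the 100 most abundant coding genes.

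Rpl41, which encodes the smallest ribosomal protein, led the family with 2087 TPM in replicate 1 and 2032 in replicate 2. The large-subunit gene Rpl32 followed with 1130.0 and 1083 TPM, and Rpl37a stood at 969 and 977. In the small subunit Rps19 led with 1084 and 1139 TPM. It was followed by Rps29 with 1113 and 1068 and by Rps14 with 1002 and 985. The order of Rps19, Rpl32 and Rps29 differed between the libraries, so these 3 were not separable, while Rpl41 stood above them in both. The genes of the large-subunit stalk, which recruits translation factors to the ribosome, lay close together. Rplp0, its base, had 732 and 707 TPM, Rplp1 711 and 687 and Rplp2 653 and 619. Rpsa, a small-subunit protein also known as the laminin receptor, had 423 and 431 TPM.

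Of the detected members 4 lay under 80 TPM. Rpl5, a protein that binds the small ribosomal RNA of the large subunit together with Rpl11, had 60.8 and 54.1 TPM. Rps19bp1 had 61.9 and 56.2, Rpl27a 70.0 and 66.8 and Rpl12, which sits beside the stalk, 77.8 and 68.6. Apart from Rps19bp1 these are genes with reads on near-identical copies, as described below. The next lowest, leaving out paralogues ending in l, were Rps23 (142 and 135 TPM), a protein of the decoding centre, and Rpl27 (149.7 and 145).

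**Figure D1:**
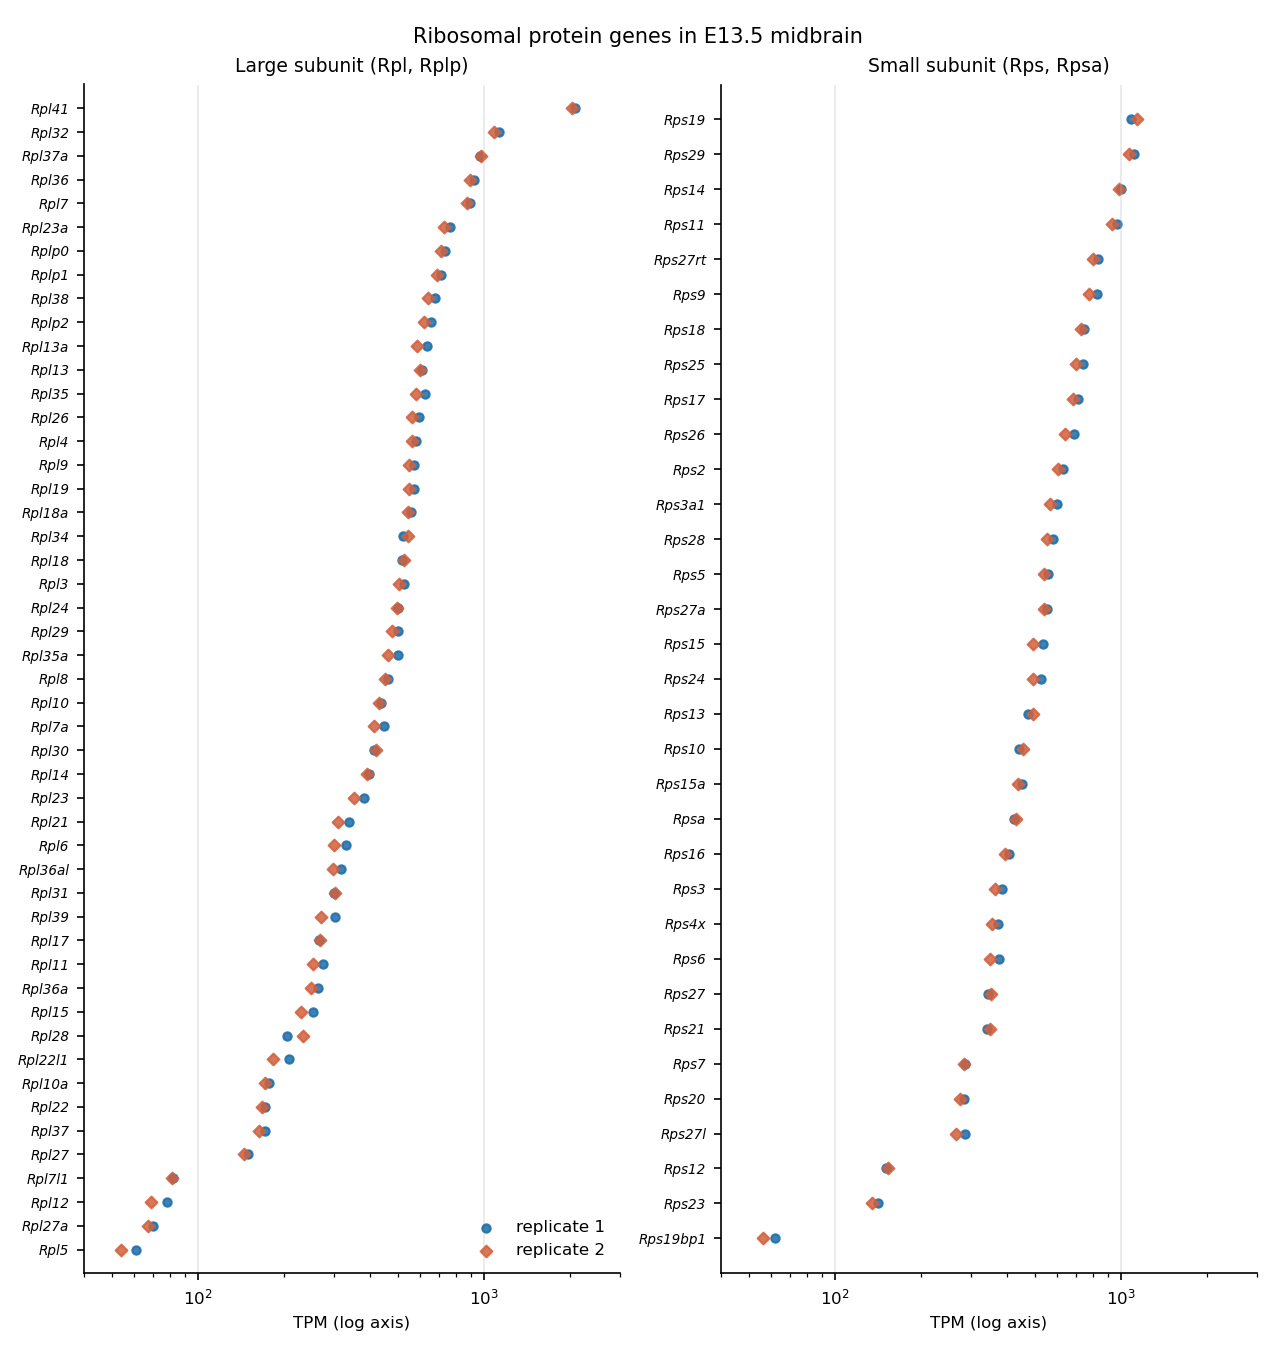
TPM of detected members on a log axis, large-subunit genes on the left and small-subunit genes on the right, ordered by mean. Circles are replicate 1 and diamonds replicate 2, and the 2 symbols of a gene lie close together compared with the distance from Rpl5 (57.5 TPM on average) to Rpl41 (2059.7).

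The spread of the family was described over 79 members with at least 10 TPM in both libraries and no paralogue name. Their lowest member, Rpl5, lay at 57.5 TPM on average, while the only members under the minimum of 10 TPM were the paralogues Rpl39l, Rpl3l and Rpl10l at 0.0900 TPM or less. The median member stood at 489.7 TPM, with quartiles at 319.6 and 627 TPM, an upper quartile 1.96 times the lower one. The highest member exceeded the lowest 35.8-fold, and the coefficient of variation over members was 59.4%. Between the replicates the coefficient of variation of a member had a median of 3.01% and reached 8.86% at most, in Rpl12. The differences between genes of the family were thus much larger than those between the libraries. Large-subunit genes had a median of 486 TPM with a quartile ratio of 2.23, and small-subunit genes 511 TPM with 1.92.

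By the quartile ratio, other genes were more widely spread. The 77 mitochondrial ribosomal protein genes had a median of 71.6 TPM and a quartile ratio of 2.52, and 8498 other coding genes with at least 10 TPM a median of 36.3 and a ratio of 3.77. By other measures the mitochondrial genes were not more widely spread, with a ratio of highest to lowest of 20.1 and a coefficient of variation of 61.0%. No difference in spread was tested. Within the family TPM fell with annotated length, with a Spearman correlation of -0.42 over the 79 genes. The correlation was -0.31 for reads per annotated base, a measure without the correction for effective length, and 0.30 for reads. These values describe genes of the same libraries, which are not independent replicates. The 4 X-linked members lay under the family median in the deposited TPM, with Rpl10 at 433 ± 6.82 TPM, Rps4x at 364 ± 11.1, Rpl39 at 285 ± 22.7 and Rpl36a at 256 ± 10.4 (SD, n = 2). With the reads of pseudogene copies added, as described below, Rpl10 stood at 579 TPM, above the family median of 543.

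Processed pseudogenes, the intronless copies left by reverse transcription of an mRNA, were listed with many reads in these tables. A search with the coding sequence of each member found 681 pseudogene entries with at least 90% identity over at least 80% of the coding sequence, for 77 of 86 members. Most were silent in the tables, with 231 at 0 reads and 518 under 1 TPM in both libraries, but 22 were listed at 100 TPM or more in both. Of these 22 entries 17 were identical to the member over the aligned coding sequence, and the lowest identity was 96.4%. The copies held 14.2% of the reads of family and copies together in replicate 1 and 13.7% in replicate 2. Reads of an identical stretch cannot be told apart by sequence, so their division between gene and copy is an estimate. Expected counts were fractional in at least 1 library for 87.2% of members, against 39.8% of 1528 other coding genes with a mean of at least 100 TPM.

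The start of the coding sequence, from the GENCODE M21 transcripts, is shown for genes whose reads lay mainly on a copy. Rpl5 lies at chr5:107900502-107909005 on the plus strand and its copy Gm15500 at chr7:114705217-114706235 on the minus strand. Rps23 lies at chr13:90922958-90924950 and Rps23-ps1 at chr3:37714740-37715164, both on the plus strand. Capitals would mark a base that differs from the gene, and the first 60 bases hold none.
Rpl5: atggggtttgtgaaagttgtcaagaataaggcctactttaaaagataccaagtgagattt
Gm15500: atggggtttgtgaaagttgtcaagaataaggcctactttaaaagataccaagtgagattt
Rps23: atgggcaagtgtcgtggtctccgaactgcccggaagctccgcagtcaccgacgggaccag
Rps23-ps1: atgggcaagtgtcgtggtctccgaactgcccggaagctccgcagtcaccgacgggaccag

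In 5 members over 50% of the reads lay on copies in both libraries. For Rpl5 the share was 81.6% and 81.8%, with Gm15500 listed at 388 and 376 TPM. For Rps23 it was 76.1% and 75.9%, with Rps23-ps1 at 902 and 851 TPM. For Rpl27 it was 76.6% and 76.2%, with Gm11518 at 487 and 461 TPM and Rpl27-ps3 at 359.8 and 347. The other two were Rpl27a (64.2% and 64.4%, on Gm7536) and Rpl12 (58.5% and 60.4%, on Gm10275). In these 5 members the shares differed little between the replicates. In 60 members the share was under 10% in both libraries. Some copies stood above their gene in TPM with fewer reads, because their entries are short. Rpl37rt had 548 and 494 TPM from 2182 and 2625 reads, and Rpl37 172 and 164 TPM from 2651 and 3362 reads. Gm14303, an entry of 171 nt identical to Rps29 over its coding sequence, had 1235 and 1216 TPM from 1783 and 2340.4 reads.

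With the reads of pseudogene copies added to each gene, the family became more even. This calculation was added after the values were seen, and where the reads came from was not tested. Rpl5 moved from 57.5 to 314 TPM on average, Rps23 from 138 to 577 and Rpl27 from 147 to 624. The median moved from 489.7 to 543 TPM, the quartile ratio from 1.96 to 1.73 and the coefficient of variation over members from 59.4% to 50.5%. The ratio of highest to lowest stayed at 34.9 because Rps19bp1, which had no such copy, became the lowest at 59.1 TPM. Without this gene, which is not a ribosomal protein, the ratio was 12.1, from Rpl22 at 171 TPM to Rpl41 at 2059.7, and the quartile ratio 1.70. Leaving out Rps19bp1 alone kept the ratio at 35.8. A further 20 near copies were not pseudogene entries and were not added, among them Gm2000 (490 and 526 TPM), a copy of Rpl35 annotated as protein-coding.

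**Figure D2:**
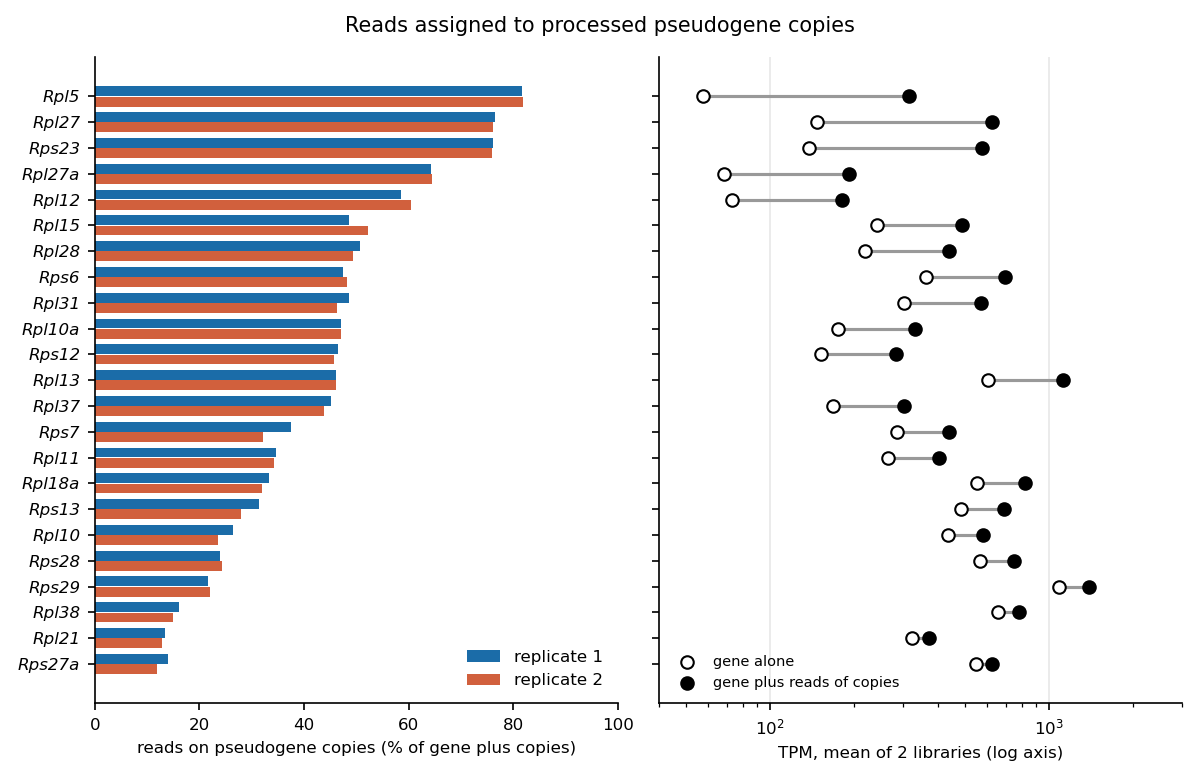
Detected members with the highest share of reads on pseudogene copies. Left, bars give that share in percent for each library, from 81.6% and 81.8% in Rpl5 downwards; right, open points give the mean TPM of the gene alone and filled points the mean with the reads of the copies added, on a log axis, with Rpl5 moving from 57.5 to 314 TPM.

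The family has 7 paralogues whose symbol ends in l or l and a digit, and they fell into forms at or near 0, a lower form and forms near their partners. Of these Rpl3l and Rpl10l had 0 reads in both libraries and Rpl39l 1 and 2 reads, Rpl7l1 lay well under Rpl7, and Rps27l, Rpl36al and Rpl22l1 stood near their partners. The coding sequences of the partners that were near in level start as follows, with capitals for bases that differ from the first gene of each set. Rps27 lies at chr3:90212522-90213651 (minus strand), Rps27rt at chr9:114982366-114982739 (minus) and Rps27l at chr9:66946086-66949516 (plus). Rpl36a lies at chrX:134585654-134588062 (plus) and Rpl36al at chr12:69182731-69184083 (minus). Rpl22 lies at chr4:152325742-152334071 and Rpl22l1 at chr3:28805436-28807424, both on the plus strand.
Rps27: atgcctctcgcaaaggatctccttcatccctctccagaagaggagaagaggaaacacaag
Rps27rt: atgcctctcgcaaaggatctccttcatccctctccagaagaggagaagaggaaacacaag
Rps27l: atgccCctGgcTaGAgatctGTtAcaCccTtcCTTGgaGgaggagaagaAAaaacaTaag
Rpl36a: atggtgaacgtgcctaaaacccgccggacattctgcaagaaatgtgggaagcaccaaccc
Rpl36al: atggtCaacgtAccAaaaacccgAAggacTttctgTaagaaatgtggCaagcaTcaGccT
Rpl22: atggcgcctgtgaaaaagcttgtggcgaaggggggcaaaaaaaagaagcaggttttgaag
Rpl22l1: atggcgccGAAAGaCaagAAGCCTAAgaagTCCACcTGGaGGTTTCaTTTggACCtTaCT

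Over the 60 bases shown, Rps27l differs from Rps27 at 18 positions, Rpl36al from Rpl36a at 11 and Rpl22l1 from Rpl22 at 37, while Rps27rt has no difference. In the translated coding sequence Rpl36a and Rpl36al are identical, and Rps27l differs from Rps27 in 3 of 84 residues. Rpl22l1 is 70.3% identical to Rpl22 and Rpl7l1 40.7% identical to Rpl7. Of the 3 forms at or near 0, Rpl10l is 98.6% identical to Rpl10 and Rpl39l 94.1% to Rpl39. Rpl3l was compared through a transcript of 240 residues, against 403 in Rpl3. Its identity of 43.4% counts the residues missing from that transcript as differences, with 58 substitutions elsewhere, so it does not show a distant form.

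Pairs were tested within each library by the difference of log2(TPM + 0.1), fitted with limma over 454 pairs of symbols of this form in the genome, at an adjusted p of 0.05. This scale understates differences from genes near 0. With the family's 7 pairs and Rps4x with Rps4l, 6 of 8 were called. Of all pairs tested 91.0% were called, so a call by itself sets the family's pairs apart from no other pair. The p-values measure no more than how far the 2 libraries vary, and pairs of symbols are not all paralogues.

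Rpl3l, the form known from heart and skeletal muscle, had 0 reads in both libraries, while Rpl3 had 527 and 506 TPM. A count of 0 allows up to 3 reads per library, or 0.166 and 0.124 TPM for Rpl3l, so by this floor Rpl3 was at least 3179.8-fold higher in replicate 1 and at least 4070.4-fold higher in replicate 2. Rpl10l, known from the testis, also had 0 reads in both, against 438 and 429 TPM for Rpl10. By the same floor Rpl10 was at least 2705-fold and at least 3529-fold higher. Rpl39l, another form known from the testis, had 1 read in replicate 1 and 2 in replicate 2, and Rpl39 301 and 269 TPM. The ratio was 4265 in replicate 1 (95% exact interval 765 to 168512, counting error only) and 2542 in replicate 2 (703 to 21001). All 3 pairs were called, with limma adjusted p = 1.21e-11 for Rpl3 and Rpl10 and 2.61e-11 for Rpl39. The size of these values depended on the setting. With a pseudocount of 0.01 limma adjusted p was 0.000115 for Rpl3 and Rpl10 and 0.000246 for Rpl39. Without a minimum TPM on the pairs it was 0.000827 and 0.000951. It was smaller with a pseudocount of 1, with posterior mean TPM and with the trend.

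Rpl7l1, a factor of large-subunit assembly, stood well under its partner but was clearly expressed, with 81.8 and 81.5 TPM. Rpl7 had 895 and 877 TPM, and stood above it by 3.44 ± 0.02 on the log2 scale (SD, n = 2), 10.8-fold, with limma adjusted p = 1.14e-08. Rps4x was 2.69-fold higher than Rps4l, with 372 and 356 TPM against 140.2 and 131 (limma adjusted p = 7.40e-06). Rps4l is annotated as a transcribed processed pseudogene and is not a member.

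Rps27 and Rps27l, a form induced by p53, were nearly equal in the tables. Rps27 had 345 and 352 TPM and Rps27l 285 and 266, a log2 difference of 0.34 ± 0.09 (SD, n = 2) with limma adjusted p = 0.0463. The call did not hold with a pseudocount of 0.01 (limma adjusted p = 0.0729) or without a minimum TPM on the pairs (0.0517). The retrogene Rps27rt, identical to Rps27 in coding sequence, was listed at 835 and 798 TPM, above both. The entry of Rps27 is 255 nt long, the length of its coding sequence, so its reads could also match Rps27rt. With the TPM of Rps27rt added to Rps27, the difference to Rps27l was 2.08 ± 0.04 on the log2 scale, 4.22-fold, an addition made after the values were seen and not tested.

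Rpl36al and Rpl22l1 stood slightly above their partners without a call. Rpl36al had 317 and 297 TPM and Rpl36a 263 and 249. The log2 difference of Rpl36a to Rpl36al was -0.26 ± 0.01 (SD, n = 2), in the same direction in both libraries, with limma adjusted p = 0.104. This pair was called with a pseudocount of 1 (limma adjusted p = 0.0244), with both genes required at 1 TPM (0.0437) and with a trend of the spread on level (0.000796). Rpl22l1 had 209 and 183 TPM and Rpl22, an RNA-binding protein of the large subunit, 172 and 168. Their difference was -0.20 ± 0.11 on the log2 scale, with limma adjusted p = 0.206, and 0.0156 with the trend. A missed threshold does not show that the genes are equal.

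**Figure D3:**
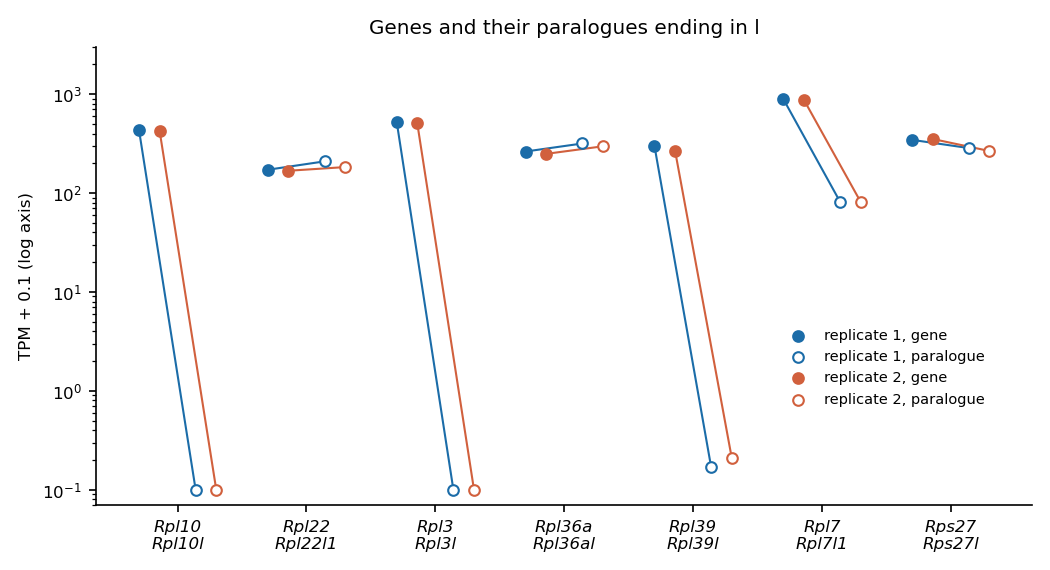
TPM + 0.1 on a log axis for 7 genes (filled points) and their paralogues (open points), with a line for each library. The lines of Rpl3, Rpl10 and Rpl39 drop to the bottom of the plot, the line of Rpl7 drops from about 886 to 81.6 TPM, and those of Rps27, Rpl36a and Rpl22 are nearly flat.

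Many ribosomal protein mRNAs are known to start with a C and a run of pyrimidines. Start sites from RefSeq (GRCm38.p6) were available for 66 of 86 members. A C followed by at least 5 letters C or T on the coding strand, starting within 5 bases of the annotated start, was found in 27 of 66 members, 40.9%. It was found in 11.8% of 16251 other coding genes and in 10.2% of all 32851 promoters. The windows below run from 10 bases before the start to 19 bases after it. Capitals mark the pyrimidines from the matching C nearest the start onwards. Pyrimidines directly before that C belong to the same run but stay in lower case. Windows are shown for some of the genes with long marked stretches and for Rps27 with its retrogene. Those of Rpl22l1 and of abundant members without a run follow.
Rpl27a chr7:109519185-109519214(+): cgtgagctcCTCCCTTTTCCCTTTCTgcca
Rpl15 chr14:18270967-18270996(-): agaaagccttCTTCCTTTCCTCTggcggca
Rpl35 chr2:39005112-39005141(-): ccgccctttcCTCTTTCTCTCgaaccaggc
Rps6 chr4:86857348-86857377(-): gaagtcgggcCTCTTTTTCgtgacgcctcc
Rps27 chr3:90213629-90213658(-): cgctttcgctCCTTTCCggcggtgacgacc
Rps27rt chr9:114982720-114982749(-): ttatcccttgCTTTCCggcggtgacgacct
Rpl22l1 chr3:28805498-28805527(+): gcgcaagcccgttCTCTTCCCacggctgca
Rpl41 chr10:128549149-128549178(-): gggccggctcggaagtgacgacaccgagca
Rplp0 chr5:115559457-115559486(+): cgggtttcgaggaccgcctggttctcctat

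The marked stretch of Rpl27a is 17 bases long and starts 1 base before the annotated start, that of Rpl15 is 13 bases long and starts at it. In both, pyrimidines precede the marked stretch without a break, so the whole run is longer and starts earlier. The windows of Rpl41 and Rplp0, both abundant, hold no such run at the annotated start, which can lie some bases away from the start used in the tissue. Members with a run had a median of 448 TPM and members without one 367, over ranges of 68.4 to 816 and 0 to 2059.7 TPM. Fau and Rack1, ribosomal proteins with other symbols, both held the run. It was found in 4 of 13 genes of a list of translation factors and related mRNAs (Eef1a1, Nap1l1, Eif3f and Eif3l) and in 0 of 26 genes of ribosome assembly. Among regulators of ribosomal protein synthesis 3 of 14 held it (Larp1, Mtor and Yy1). A match describes the letters in the window and is no evidence of control.

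**Figure D4:**
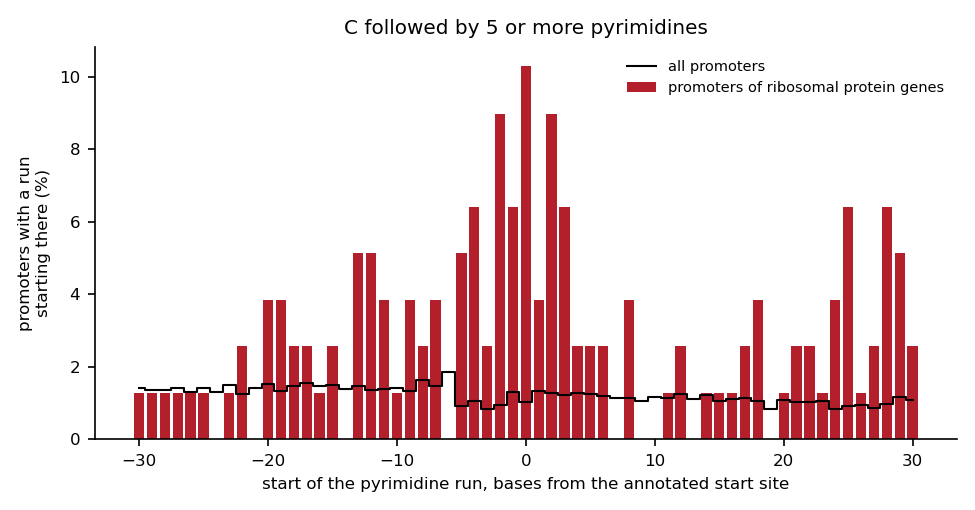
Share of promoters in which a run of a C and at least 5 pyrimidines, not preceded by a C, begins at each position, in bases from the annotated start, with bars for 78 promoter entries of ribosomal protein genes and a line for all 32851 promoters. The highest bar, 10.3% (8 entries), lies at the start itself, where the line is at 1.03%. The bars at -2 and 2 reach 8.97% (7 entries each). A C preceded by a T counts as a beginning, so a long run can count at several positions.

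Small nucleolar RNAs, which guide the modification of ribosomal RNA, are often encoded in introns of these genes. A snoRNA gene lay inside 30 of 86 members (34.9%), 58 snoRNA genes in all, against 1.68% of 8650 other coding genes with a mean of at least 10 TPM. Rpl4 held 5 of them and Rpl13a 4. Most snoRNAs are shorter than the RNA selected here, and their levels were not analysed. The members lay on 19 chromosomes, with 14 of them on chromosome 7. The share of all coding genes on that chromosome was not counted, so this number does not show clustering.

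The transcript tables assigned most of the family's RNA to coding transcripts. Over 81 detected members the median share of TPM on coding transcripts was 99.1%, and 16 of them lay under 90%. These leave out 2 members with over 10% on transcripts that have no type in GENCODE M21. In 4 members under 50% lay on coding transcripts. For Rps20 it was 6.85% and 7.05%, with 90.7% and 91.6% on a retained-intron transcript, and for Rpl35 5.59% and 6.23%, with 83.5% and 86.2% on a processed transcript. Rpl12 had 17.8% and 20.3%, with 64.9% and 58.2% on a nonsense-mediated decay transcript, and Rpl23 37.2% and 41.5%. These transcripts share exons with the coding one, the shares are estimates from short reads, and total RNA also holds unspliced RNA.

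Several coding transcripts were listed side by side in 18 members. Rpl29 divided its TPM between a transcript of 710 nt (57.6% and 52.5%) and one of 733 nt (42.4% and 47.5%). Rps10 had 62.1% and 57.5% on a transcript of 614 nt and 34.9% and 40.7% on one of 498 nt. For Rpl11 the order was less even, with 56.6% and 49.5% on a transcript of 622 nt and 34.8% and 42.0% on one of 833 nt. Rps15a had 57.4% and 57.0% on a transcript of 640 nt and 39.6% and 40.2% on one of 250 nt. Rpl38 had 45.1% and 48.1% on a transcript of 364 nt and 38.4% and 36.0% on one of 371 nt. Rps24, known for tissue-specific splicing at the end of its coding sequence, had 99.3% and 99.1% on a single transcript of 468 nt.

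Genes mutated in Diamond-Blackfan anaemia, an inherited failure of red cell production, ranged from the lowest detected member to one of the highest. All 19 genes of this list are members, and all were detected, with a median of 482 TPM. Rps19, the gene most often mutated in it, stood at 1112 ± 38.8 TPM (SD, n = 2), Rps26 at 664 ± 32.7 and Rps24 at 511 ± 23.1. Rpl11 stood at 264 ± 16.4, and Rpl5, with the reservation on its copies, at 57.5 ± 4.77. Fau and Rack1 lay between the lower quartile and the median of the family. Fau, which is made as a ubiquitin-like fusion, had 422 and 386 TPM, and the scaffold Rack1 388 and 369.6.

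Other genes of ribosome production and translation had lower medians than the family, although Eef1a1 stood above every member. In the list of translation factors and related mRNAs 18 of 18 genes were detected, from Eif3f at 62.8 TPM to the elongation factor Eef1a1 at 3056, with a median of 249.6. In ribosome assembly 29 of 29 measured genes were detected, from Heatr1 at 8.57 to the nucleolar protein Npm1 at 478, with a median of 56.1. Among regulators of ribosomal protein synthesis 17 of 17 were detected, from Rptor at 8.46 TPM to Rheb at 169. Larp1 stood at 12.6 ± 0.382 TPM, Mtor at 20.9 ± 0.0424 and Mycn at 51.2 ± 1.97 (SD, n = 2).

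The replicates differed little in the family. After TMM scaling of rounded expected counts, log2 ratios of replicate 2 to replicate 1 lay between -0.14 and 0.11 over the 83 members whose counts averaged 50 or more. The median was -0.01 in the family and 0.00 over all 14366 genes with that count, and the median size of the ratio 0.03 against 0.10. No member (0 of 83) reached 1.5-fold, which 3.31% of all genes did. The 83 members had mean counts of 1003 or more, which only 7311 of the 14366 genes reached. Ratios of fewer reads vary more by counting, so these contrasts with all genes are not matched for depth. No test is possible between 2 single libraries. Of 83 ratios 29 lay above 0 and 54 below, where 49.1% of all genes lay below. In TPM 68 members were higher in replicate 1 and 16 in replicate 2, a measure that includes the larger share of spike-ins in replicate 2.

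The members furthest apart stood at ratios between 0.907 and 1.08. Rpl15 had 252 TPM in replicate 1 and 229.7 in replicate 2, a ratio of scaled counts of 0.907 (95% exact interval 0.878 to 0.938, counting error only). Rpl22l1 (0.916, 0.860 to 0.975) and Rpl39 (0.924, 0.880 to 0.969) were also lower in replicate 2. Rps13 (1.08, 1.04 to 1.12), Rpl34 (1.07, 1.03 to 1.12) and Rpl18 (1.06, 1.02 to 1.10) were higher in it. The share of reads on pseudogene copies differed between the libraries in Rpl15 (48.7% in replicate 1 and 52.2% in replicate 2) and Rps13 (31.3% and 27.9%). With the copies added Rpl15 had 492 and 480.2 TPM and Rps13 689 and 687. The part of this division in their ratios was not tested. The interval left out 1 for 18 of 83 members, 7 above and 11 below. It did so for 39.3% of all 14366 genes and for 48.3% of the 7311 genes whose mean count reached 1003, that of the lowest detected member. These intervals cover neither biological nor preparation differences. Of the assembly, translation factor and regulator lists 0 genes reached 1.5-fold.

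**Figure D5:**
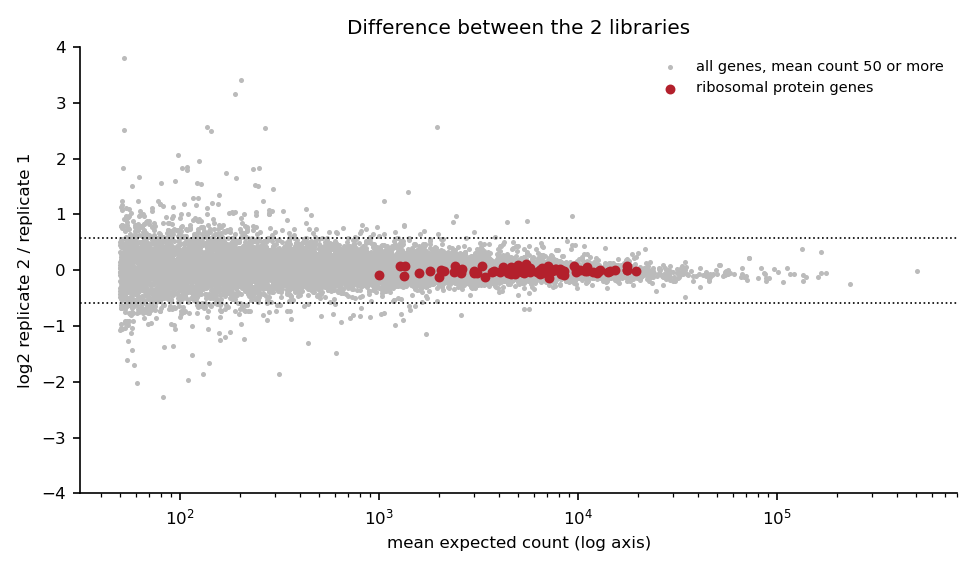
Log2 ratio of replicate 2 to replicate 1 after TMM scaling against the mean expected count on a log axis, for 14366 genes (grey) and 83 ribosomal protein genes (red), with dotted lines at 1.5-fold. The red points lie in a band from -0.14 to 0.11, inside both lines.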

How the data were processed

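The 2 libraries of E13.5 midbrain total RNA are, per the labels, replicates 1 and 2 of 1 group; nothing else says how far they are independent, so SDs and p-values cover only the spread between them. The labels name mirVana for extraction and link to the SMARTer Ultra Low kit manual. The authors deposited a gene and a transcript table per library, on mm10 with GENCODE M4 per the deposited text. The expected counts deposited are estimated reads, divided among matching entries, per the file headers. The deposited TPM values are corrected for effective length (length less 99 nt, from the values) and scaled over all entries, spike-ins included. The deposited percent values give each transcript's share of its gene. Column names are those of RSEM. For aligner, versions, filters and use of strand, nothing is given in the sources used here, and overlapping antisense genes are uncertain.

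Symbols, types and positions came from GENCODE M21 for 42462 of 43346 gene entries, promoters from RefSeq. Copies were found with BLAST 2.17.0. The reads of pseudogene copies were added to a gene's reads and divided by its effective length. Pairs were tested with limma 3.58.1 (intercept only, two-sided, Benjamini-Hochberg) in R 4.3.3 on log2(TPM + 0.1), with at least 1 gene of the pair at 1 TPM. Ratios between libraries used rounded expected counts with edgeR 4.0.16 TMM scaling and exact Clopper-Pearson 95% intervals, which cover counting error only; the reads carry no molecular identifiers in these tables and are not independent molecules. The procedures were also run on simulated counts and simulated pair differences. These did not cover reads divided among identical copies, or pairs with a paralogue at 0 reads. Alternatives were library totals or DESeq2 1.42.0 size factors, other pseudocounts and minimums, posterior mean TPM, annotated length, coding transcripts only and each library alone; those with pseudogene copies, Rps27rt or Rps19bp1 were added after seeing the data.

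The members and lists were chosen with earlier results of these data known. Members named are the paralogues ending in l with their partners, Rpsa and the stalk genes, X-linked members, the 6 highest and 6 lowest, the 3 largest ratios in each direction, members under 1 TPM, up to 5 with several coding transcripts, 5 Diamond-Blackfan genes, and ribosomal proteins with other symbols; some genes the rule takes are not reported here. Other genes, pseudogenes among them, were named after their values were seen. Riok2 was not matched and was not analysed here.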

Additional observations from a re-analysis of the deposited data

How the results depend on the processing

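Of 104 alternative values computed, 84 were counted as kept and 0 reversed. For most, kept means the same direction and side of the threshold, or a move smaller than the spread of the replicates. The counts of pairs called and of members with a pyrimidine run have no such measure. They were all counted as kept although most of them changed, as given below. The quartile ratio of the family (1.96) was 2.04 with annotated length, 2.05 over coding transcripts, 2.18 over all members, 1.73 with reads of pseudogene copies added and 1.70 with Rps19bp1 left out as well. Its range without one replicate was 1.93 to 2.00. The ratio of highest to lowest (35.8) was 31.3 with annotated length, 145 over coding transcripts, where members such as Rpl12 and Rps20 lose most of their TPM by construction, and 12.1 with copies added and Rps19bp1 left out; without one replicate it was 34.3 to 37.6. The family's share of gene TPM (4.49%) was 4.38% with posterior mean TPM, 4.18% with annotated length, 4.99% with pseudogenes named -ps added, 5.66% with copies found by sequence added and 1.59% as a share of reads; without one replicate it was 4.47% to 4.52%. Of the pairs, 4 to 8 were called: 7 with a pseudocount of 1, 5 with 0.01 or with no TPM minimum, 4 with both genes at 1 TPM, which leaves out the 3 paralogues at or near 0, and 8 with a trend. The Rps27 call was lost, and those of Rpl36a and Rpl22 gained, under the settings named with them. Each library alone gives a value with no test. The median log2 ratio between libraries was between -0.06 (TPM) and 0.00 (library totals), and 0 members reached 1.5-fold under any scaling tried. The pyrimidine run was found in 21 to 35 of 66 members as its window and length were changed. No paired analysis was possible because the series has 1 group. Depth limits most the paralogues near 0 reads.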
